A study of Oryza sativa with 44 samples.

Results

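The rice knockout line osythdf5c was compared with NIP wild type plants, using 6 of the 44 RNA-seq libraries of a series on the YTH gene family. Members were chosen by their labels: 3 libraries of osythdf5c and 3 of NIP. YTH domain proteins bind RNA at adenosines that carry a methyl group (N6-methyladenosine, m6A), the most common internal mark of messenger RNA. Known members act on splicing, stability or translation of the marked transcripts, and plants have an expanded family of them.

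The plants of all groups were seedlings aged 2 weeks, raised in nutrient solution, and the labels name no organ. The osythdf5c group carries a CRISPR knockout in the NIP background, and NIP is the group labelled wild type. The labels do not give the edit, the guide, the number of independent lines or whether plants were pooled. As a second yardstick, 9 other lines in the NIP background were used with 3 libraries each: the knockouts osythdf1b, osythdf1c, osythdf2b, osythdf3b, osythdf3c and osythdf4c, the knockdowns RNAi-OsYTHDF2C and RNAi-OsYTHDC1A, and the overexpression line OE-OsYTHDF1A. A wild type of another background, DJ (3 libraries), is mentioned only for its levels. The series asks how loss of YTH genes changes gene expression. The series text calls the replicates biological.

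Depth differed between the groups compared. The osythdf5c libraries held 13541543 to 15413843 counts, the lowest totals of the NIP background, and the NIP libraries 22723411 to 23803248. The osythdf5c replicates also lay further apart: over 13352 well expressed features, the median absolute log2 difference between 2 replicates was 0.110 to 0.159 in osythdf5c and 0.0526 to 0.0583 in NIP. Replicates 1 and 2 of osythdf5c were the most distant pair. The 10 most abundant features took 5.22%, 7.28% and 6.82% of the counts in osythdf5c replicates 1, 2 and 3, against 5.93%, 5.84% and 5.97% in NIP replicates 1, 2 and 3.

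Features are given by the locus IDs of the deposited tables, which carry no gene names. The reference table of rice genes matched 1 ID through a synonym, so the transcript of the targeted gene, markers of tissues and functional gene groups were not analysed here. Chromosomes are those written in the locus IDs, on the build IRGSP-1.0, and no coordinates are given. Named loci were taken by a rule of size, at most 2 higher and 2 lower per comparison. Levels are given as CPM, counts scaled to the library total. Differences were tested with edgeR's quasi-likelihood test, and a call needed an adjusted p under 0.05 (Benjamini-Hochberg).

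In osythdf5c most measured features differed from NIP in similar numbers in both directions, and most of the differences were small. Of 27584 features tested, 17275 were called (62.6%), with 8725 higher (31.6%) and 8550 lower (31.0%). Of the called features, 43.1% differed by less than 1.5-fold and 23.2% by 1.5- to 2-fold. With library totals in place of TMM, 9020 were higher and 8233 lower. On TMM-scaled CPM, the 3 osythdf5c libraries lay above the 3 NIP libraries for 8585 features (31.1%) and below them for 8595 (31.2%). At 2-fold or more, 5826 features remained (21.1%), 2983 higher (10.8%) and 2843 lower (10.3%). A change of 10-fold or more was found for 361 higher and 391 lower features. These are bulk seedling libraries, so a change in the share of a cell type or organ and a change per cell cannot be told apart.

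**Figure D1:**
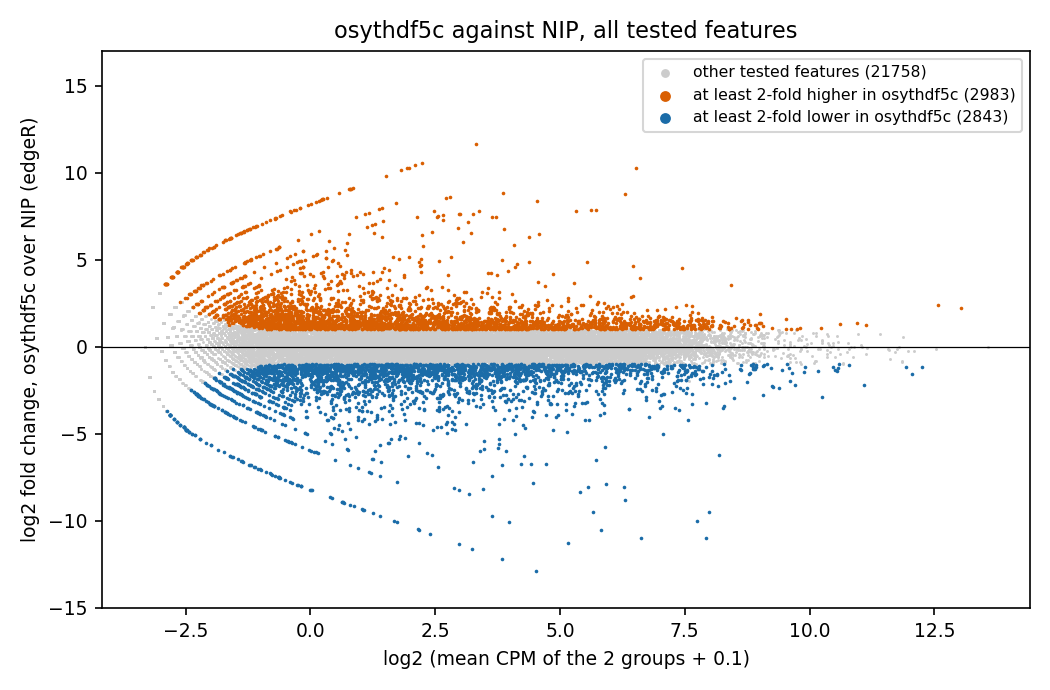
Fitted log2 fold change of osythdf5c over NIP (y axis) against the mean level of both groups, as log2 of CPM + 0.1 (x axis), for the 27584 tested features. Orange points mark the 2983 features called at least 2-fold higher in osythdf5c and blue points the 2843 called at least 2-fold lower.

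Features that changed at least 2-fold were followed by their share of all counts. Those higher in osythdf5c took 13.4% ± 1.1 of its counts, against 4.67% ± 0.12 in NIP (SD, n = 3 each). Those lower in osythdf5c took 4.88% ± 0.20 of its counts, against 14.4% ± 0.062 in NIP (SD, n = 3 each). These sums follow from the choice of features and carry no test.

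Features were split into 4 equal classes by their mean level over the 33 NIP-background libraries. In the lowest class (under 1.96 CPM) 40.8% were called and 33.9% changed at least 2-fold. In the highest class (over 33.2 CPM) 79.5% were called and 12.2% changed at least 2-fold. The order of the 2-fold shares turned round by limma on log2(FPKM + 1), with 6.45% in the lowest and 11.3% in the highest class, and held on log2(FPKM + 0.1), with 28.8% and 12.1%. By gene length, taken from the deposited FPKM, 55.2% of the shortest of 4 classes (up to 1110 bases) and 66.1% of the longest (from 2457 bases) were called. At least 2-fold were 28.6% of the shortest and 14.8% of the longest; the order was the same by limma on log2(FPKM + 1), with 15.1% and 4.90%. Short genes were also expressed at lower levels, with a median of 2.4 CPM in the shortest and 20.8 CPM in the longest class. Within the highest class of level the share was 26.7% in the shortest and 6.63% in the longest genes, whereas within the lowest class it was 33.6% and 36.1%. Of 1610 features without a locus ID, which carry only a running number, 54.5% were called and 30.3% changed at least 2-fold, against 63.1% and 20.6% of 25974 loci; these shares were not matched on level and have no test.

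Among abundant loci, the largest rise was that of LOC_Os07g06834 on chromosome 7. It stood at 201, 180 and 172 CPM in osythdf5c replicates 1, 2 and 3, against 0.084, 0.172 and 0.176 CPM in NIP replicates 1, 2 and 3. The osythdf5c libraries were all high and the NIP libraries near 0, with 10 counts in all 3 together. Its log2 fold change was 10.25 (SE 0.12, adjusted p = 5.3e-59 by edgeR with Benjamini-Hochberg adjustment). The other 9 lines spread over the whole range between these groups. Their means ran from 0.467 CPM in OE-OsYTHDF1A to 99.2 CPM in osythdf1b, with a median of 13.4 CPM, so osythdf5c was the highest and NIP the lowest of the 11 groups. Against the mean of the 9 lines, taken on the log2 scale here and in all later fits, its log2 fold change was 4.27 (SE 0.038, adjusted p = 1.4e-65 by edgeR with Benjamini-Hochberg adjustment).

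LOC_Os03g02470, on chromosome 3, came next. It was at 170, 157 and 142 CPM in osythdf5c, against 0.378, 0.388 and 0.264 CPM in NIP. Here too the libraries of both groups were far apart: the edgeR fit gave 8.78 on the log2 scale, with an SE of 0.097 and an adjusted p = 7.9e-60. Unlike the first locus it was not highest in osythdf5c: the means of the 9 lines ran from 3.15 CPM in OE-OsYTHDF1A to 324 CPM in osythdf1b, with a median of 125 CPM. All 9 lay above the NIP mean, and DJ reached 373 ± 8.6 CPM (SD, n = 3). Its difference from the 9 lines was therefore much smaller than that from NIP, at 1.45 on the log2 scale with an SE of 0.034 and an adjusted p = 6.5e-43 by edgeR. That fit averages the lines on the log2 scale, where low lines weigh heavily. The plain mean of the 9 lines was 148 CPM, close to the 156 ± 14 CPM of osythdf5c (SD, n = 3).

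The abundant locus with the largest fall was LOC_Os02g47390 on chromosome 2. It had 0.195, 0.222 and 0.282 CPM in osythdf5c, which is 10 counts in all, against 480, 482 and 485 CPM in NIP. Its log2 fold change was -11.01 (SE 0.10, adjusted p = 1.5e-63 by edgeR with Benjamini-Hochberg adjustment). The 9 other lines fell into very different levels. The line osythdf3b stood at 589 CPM, above NIP, osythdf4c at 29.9 CPM, and the other 7 at under 1 CPM (lowest 0.234 CPM in osythdf1b). DJ was also low, at 0.573 ± 0.30 CPM (SD, n = 3), so that NIP and osythdf3b were the groups that stood out at this locus.

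LOC_Os12g36430, on chromosome 12, had 3, 0 and 1 counts in osythdf5c replicates 1, 2 and 3 (0.0883 ± 0.099 CPM), against 199, 193 and 199 CPM in NIP. The log2 fold change was -10.98 (SE 0.16, adjusted p = 8.1e-48 by edgeR with Benjamini-Hochberg adjustment), and -12.21 without osythdf5c replicate 1, which held most of the counts. All 9 other lines lay below NIP as well. Their means ran from 0.192 CPM in osythdf3c to 28.2 CPM in OE-OsYTHDF1A, with a median of 2.41 CPM. Of the 11 groups osythdf5c was lowest and NIP highest, as the plot of named loci by library shows. Its fall was also called against the mean of the 9 lines at -4.93 on the log2 scale, with an SE of 0.39 and an adjusted p = 4.8e-16 by edgeR.

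**Figure D2:**
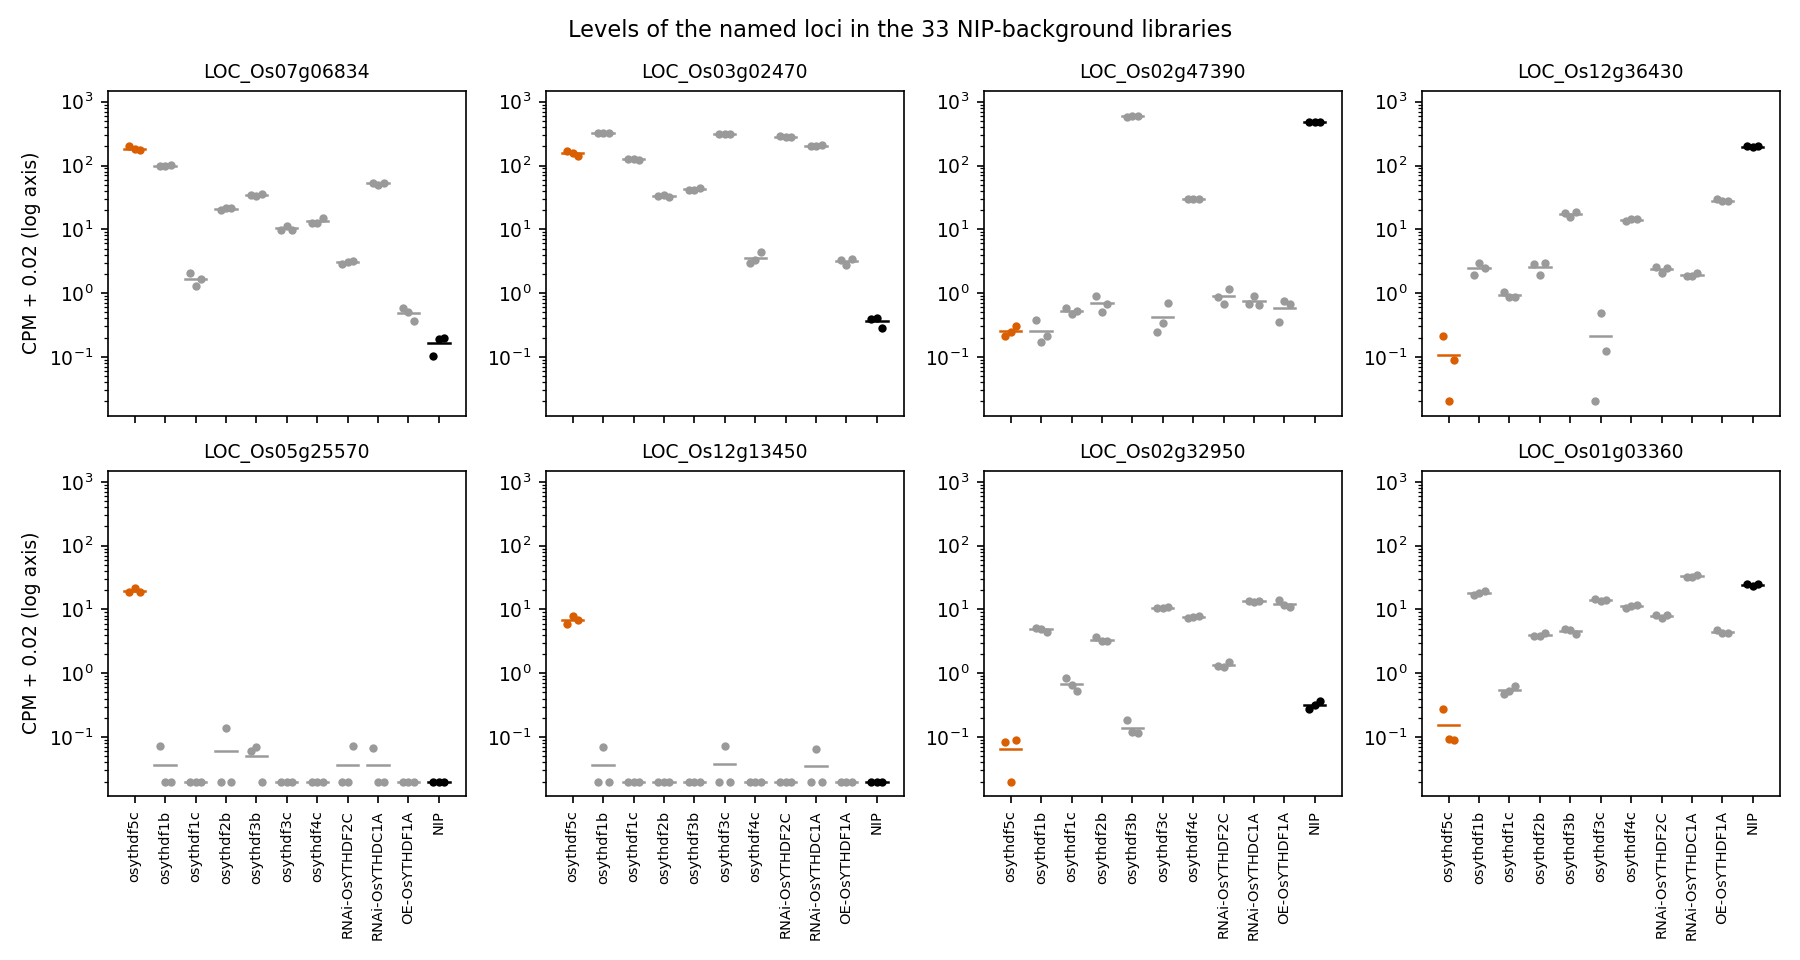
CPM + 0.02 on a log axis of the 8 named loci in the 33 NIP-background libraries. Points are libraries and bars are group means, with osythdf5c in orange, the 9 other lines in grey and NIP in black. The upper row shows the loci with the largest differences from NIP among abundant loci, where the other lines lie between or on either side; the lower row shows those with the largest differences from the 9 lines.

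The only ID with a name was LOC_Os01g19850, on chromosome 1, listed in the reference table with the synonyms OsCCC2 and KCC2. Cation chloride cotransporters carry chloride together with potassium or sodium across membranes. It was a rare transcript, with 14, 16 and 10 counts in osythdf5c (0.931 ± 0.24 CPM) and 7, 9 and 14 counts in NIP (0.433 ± 0.17 CPM; SD, n = 3 each). The libraries did not overlap in CPM, with 0.704 to 1.18 in osythdf5c and 0.294 to 0.616 in NIP. The difference was 1.08 on the log2 scale, with an SE of 0.36 and an adjusted p = 0.0081 in the edgeR test. It rested on single libraries: in the same edgeR test the adjusted p was 0.061 without osythdf5c replicate 2 and 0.051 without NIP replicate 1. The level in osythdf5c lay inside the range of the other lines, which ran from 0.499 CPM in osythdf1c, 0.555 in osythdf3b, 0.960 in RNAi-OsYTHDF2C, 1.08 in OE-OsYTHDF1A, 1.14 in osythdf2b, 1.80 in RNAi-OsYTHDC1A, 2.06 in osythdf3c and 2.11 in osythdf4c to 2.72 CPM in osythdf1b. Against the mean of the 9 lines the log2 fold change was -0.32 (SE 0.25, adjusted p = 0.28 by edgeR with Benjamini-Hochberg adjustment).

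How far a difference from NIP belonged to the line was examined by setting osythdf5c against the other lines. Comparisons that use osythdf5c share its 3 libraries, so their counts are not independent of each other. Ranked by the median absolute log2 difference of group means over the 13352 well expressed features, the nearest group to osythdf5c was osythdf2b (0.177), followed by osythdf1c (0.206), RNAi-OsYTHDF2C (0.223) and OE-OsYTHDF1A (0.259). NIP came after these 4 lines, at 0.303. Farther away were osythdf3b (0.304), osythdf4c (0.367), osythdf1b (0.413), RNAi-OsYTHDC1A (0.423) and osythdf3c (0.481). These distances use CPM scaled to library totals, and distances on TMM-scaled CPM are not given. Library totals in place of TMM moved the log2 fold change by a median of -0.12 against osythdf2b and 0.020 against NIP. Apart from osythdf2b, the 3 lines nearer than NIP differed from it in distance by less than the 0.110 to 0.159 between 2 replicates of osythdf5c, as did osythdf3b and osythdf4c, and for osythdf2b the gap lay within that range. That yardstick is a difference between single libraries, and no error of the distances was computed. How well the order of these groups around NIP is resolved was thus not tested.

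The tests gave a similar order, with exceptions. Of 27584 features tested, 16560 were called against osythdf3b and 17275 against NIP, although osythdf3b was the farther by distance. Against RNAi-OsYTHDF2C 13698 were called and against osythdf1c 14227, also the reverse of their distances. Between osythdf5c and osythdf2b, 12210 features were called (44.3%), 6120 higher and 6090 lower in osythdf5c, and 3261 of them differed at least 2-fold (11.8%). The direction of that split rests on the scaling: with library totals in place of TMM, which moved all features by -0.12 on the log2 scale, 3855 were higher and 9083 lower. Against osythdf4c, the number was 18914 (68.6%), with 7329 at least 2-fold (26.6%). Against osythdf3c it was 20168 (73.1%). The libraries of osythdf2b held 16790779 to 19787729 counts, fewer than those of NIP, and the part of depth in the number of calls was not tested.

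**Figure D3:**
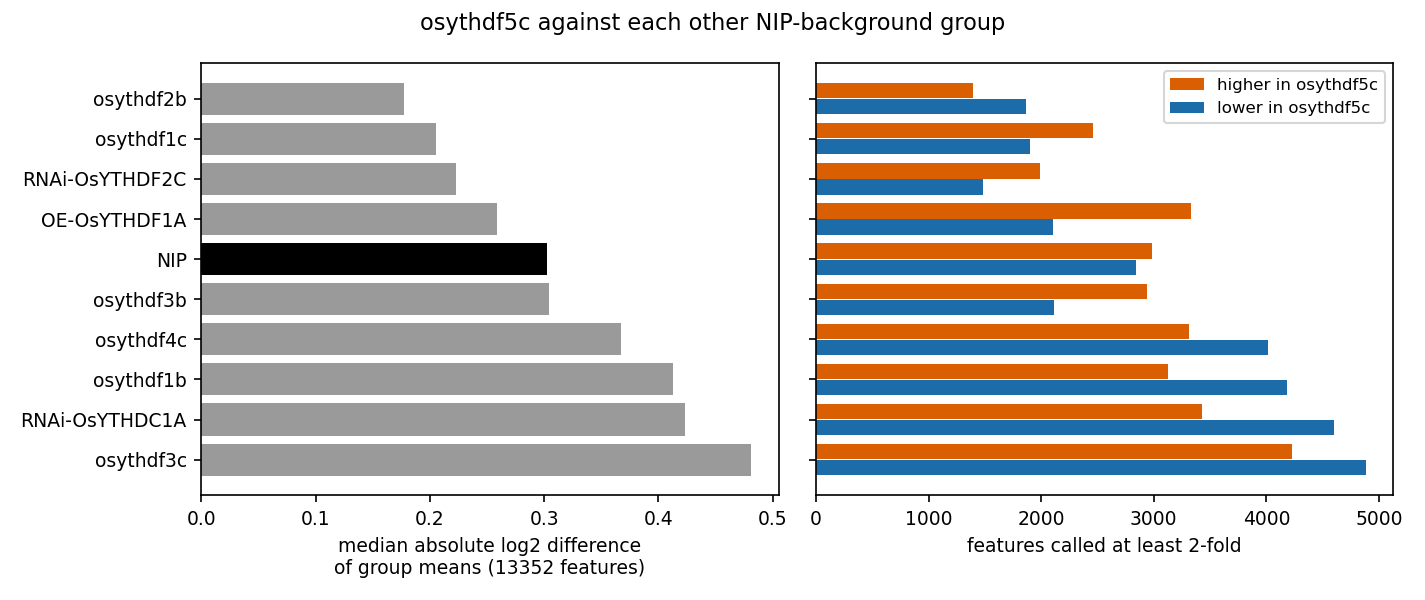
Left, the median absolute log2 difference between the mean of osythdf5c and that of each other NIP-background group over 13352 features, with NIP in black. Right, the number of features called at least 2-fold higher (orange) or lower (blue) in osythdf5c than in that group. The shortest bars on the left are those of osythdf2b, osythdf1c and RNAi-OsYTHDF2C. In all, 4 lines have shorter bars than NIP, by gaps no larger than the largest difference between replicates of osythdf5c. That yardstick is a difference between single libraries and not between group means. No error of these distances was computed.

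For most features that changed against NIP, the level in osythdf5c lay inside the range of the other lines. For 2234 of the 2983 features at least 2-fold higher (74.9%) and 2342 of the 2843 at least 2-fold lower (82.4%), the mean of osythdf5c lay within the range of the means of the 9 other lines. The NIP mean lay within that range for 1950 (65.4%) and 1845 (64.9%) of the same features. The shares of all tested features within that range are not given here. The shares within range are thus not read as a trait of the changed features. NIP stood below the libraries of all 10 lines for 317 of the features higher in osythdf5c (10.6%, against 2.01% of all features tested) and above them for 608 of those lower (21.4%, against 3.2% of all). The 3 osythdf5c libraries stood outside all 30 others, above for 293 of those higher (9.82%, against 2.14% of all) and below for 105 of those lower (3.69%, against 0.914% of all). These shares describe features chosen by their difference between both groups and carry no test.

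Over all tested features, the 3 osythdf5c libraries lay above the other 30 for 590 (2.14%) and below them for 252 (0.914%). Of the 11 groups only osythdf2b had a smaller total, 240 against 842 in osythdf5c. NIP had 1439 and osythdf3c, with most, 5396. Of the 590 features, 502 were on in DJ (1 CPM or more in all 3 libraries), and of the 252, 245 were. The share of all tested features on in DJ is not given here, so these counts are not read as a trait of either set.

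Against the mean of the 9 other lines, in the same fit of all 33 libraries but with no NIP mean in the contrast, 15836 features were called (57.4%), with 8348 higher (30.3%) and 7488 lower (27.1%) in osythdf5c. At least 2-fold were 3461 (12.5%), 1766 higher (6.4%) and 1695 lower (6.14%). With library totals in place of TMM the split was 6622 higher and 10065 lower, so no direction of the whole can be given. The p-values cover the spread between libraries of a group and not that between lines.

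LOC_Os05g25570, on chromosome 5, had the largest difference from the 9 lines. It was at 19, 21.3 and 18.7 CPM in osythdf5c, against 7 counts over the 27 libraries of the 9 lines, of which 21 had none. The ratio of osythdf5c to the 9 lines was 1464, with an exact 95% counting interval from 707 to 3651. NIP and DJ had no counts, and the level in osythdf5c was at least 457-fold higher than in NIP with 3 counts over the NIP group as the floor. In the fit the log2 fold change against the 9 lines was 10.47 (SE 0.20, adjusted p = 7.6e-42 by edgeR with Benjamini-Hochberg adjustment). Its size depends on the value added to low levels: limma gave 2.65 on log2(FPKM + 1) and 5.71 on log2(FPKM + 0.1). The loci next to it in the table were not of this kind. The lower-numbered one was at 0.0932 ± 0.041 CPM in osythdf5c and 0.0854 ± 0.084 CPM in NIP, and the higher-numbered one at 4.03 ± 1.8 CPM in osythdf5c and 10.0 ± 0.30 CPM in NIP (SD, n = 3 each).

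LOC_Os12g13450, on chromosome 12, followed the same pattern at a lower level. It had 90, 108 and 96 counts in osythdf5c (6.86 ± 1.1 CPM; SD, n = 3), against 3 counts in the 27 libraries of the 9 lines, a ratio of 1184 with an exact 95% counting interval from 401 to 5774. NIP and DJ had none, which makes osythdf5c at least 158-fold higher than NIP. The log2 fold change against the 9 lines was 9.55 (SE 0.29, adjusted p = 1.5e-30 by edgeR with Benjamini-Hochberg adjustment). Its lower-numbered neighbour shared the pattern, with 9.23 ± 2.5 CPM in osythdf5c, line means of up to 0.125 CPM in the 9 others, and no counts in NIP. The higher-numbered neighbour was at 128 ± 5.0 CPM in osythdf5c and 117 ± 1.6 CPM in NIP (SD, n = 3 each), so the isolated pattern covered 2 adjoining loci.

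In the other direction, LOC_Os02g32950, on chromosome 2, had 1, 0 and 1 counts in osythdf5c. The 9 lines had means from 0.121 CPM in osythdf3b to 13.4 CPM in RNAi-OsYTHDC1A, with a median of 4.84 CPM. The line osythdf3b was thus also near 0, with 4, 2 and 2 counts, and its separation from osythdf5c rests on a few counts. The ratio of the 9 lines to osythdf5c was 129.5 on pooled counts, with an exact 95% counting interval from 35.8 to 1069.8. The fit averages the lines on the log2 scale instead, so its size differs from that ratio. The log2 fold change of osythdf5c against the 9 lines was -5.78 (SE 0.39, adjusted p = 2.8e-20 by edgeR with Benjamini-Hochberg adjustment). NIP was low as well, with 6, 7 and 8 counts, and the fall against NIP was smaller at -2.57 on the log2 scale, with an SE of 0.70 and an adjusted p = 0.0023 by edgeR.

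LOC_Os01g03360, on chromosome 1, was at 0.26, 0.0738 and 0.0704 CPM in osythdf5c. The 9 lines had means between 0.532 CPM in osythdf1c and 33.4 CPM in RNAi-OsYTHDC1A, and NIP had 24.8, 23.4 and 25.4 CPM. No other library of the NIP background reached as low as those of osythdf5c; the lowest of the 9 lines was at 0.46 CPM. The log2 fold change was -5.46 against the 9 lines (SE 0.24, adjusted p = 9.8e-29) and -7.42 against NIP (SE 0.19, adjusted p = 1.7e-40), by edgeR with Benjamini-Hochberg adjustment. Both grew without osythdf5c replicate 1, which held 4 of the 6 counts, to -6.35 and -8.31.

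Presence and absence were counted apart from the fit. On means 1 CPM or more in all 3 libraries of a group, and off means no library above 3 counts; other limits moved these counts by over 1.5 times. By this rule 90 features were on in osythdf5c and off in NIP, and 109 were off in osythdf5c and on in NIP. The limit of 3 counts is a higher CPM in the smaller osythdf5c libraries, so off was easier to reach there. The numbers 90 and 109 are thus not set against each other. Most were rare where they were on, with a median level of 2.49 CPM in osythdf5c for the first set and 2.68 CPM in NIP for the second. A locus ID was given to 74 of the 90 and 90 of the 109.

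Some of the features on in osythdf5c and off in NIP were also on in other groups. Of the 90, 25 were on in all 9 other lines, 14 in none of them, and 46 in DJ. Per line the number ranged from 35 in OE-OsYTHDF1A to 56 in osythdf1c and RNAi-OsYTHDC1A. Only 4 of the 90 were off in all 9 lines, and all 4 were off in DJ too. Of the 109 features off in osythdf5c and on in NIP, 20 were off in all 9 lines and 58 in DJ, whereas 55 were on in none of the 9 lines. The number also off in a line ranged from 33 in osythdf3b to 79 in RNAi-OsYTHDF2C. The shares of all features on or off in these groups are not given here, so the counts are not read as a trait of either set. All libraries were counted on 1 genome build, and a transcript that is not made and one whose sequence differs from the build cannot be told apart in counts.

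By chromosome these loci were unevenly spread. Chromosome 12 held 26 of the 74 loci on in osythdf5c and off in NIP and 20 of the 90 off in osythdf5c and on in NIP, which is 0.648% and 0.498% of its 4014 loci in the table. On the other chromosomes the shares ran from 0.0294% to 0.234% and from 0.057% to 0.264%. By share, chromosome 6 came next for loci on in osythdf5c, with 11 loci, and chromosome 9 for loci off in osythdf5c, with 9. Among all tested loci, chromosome 12 also had the largest share that changed at least 2-fold, 25.7% of 1536. The other chromosomes ran from 18.3% (chromosome 3) to 24.0% (chromosome 10). With no filter on low counts the share on chromosome 12 was 14.8%. The other chromosomes are not given for that setting, so its rank there is not known. The share called differed less, from 59.9% on chromosome 11 to 64.9% on chromosome 5.

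**Figure D4:**
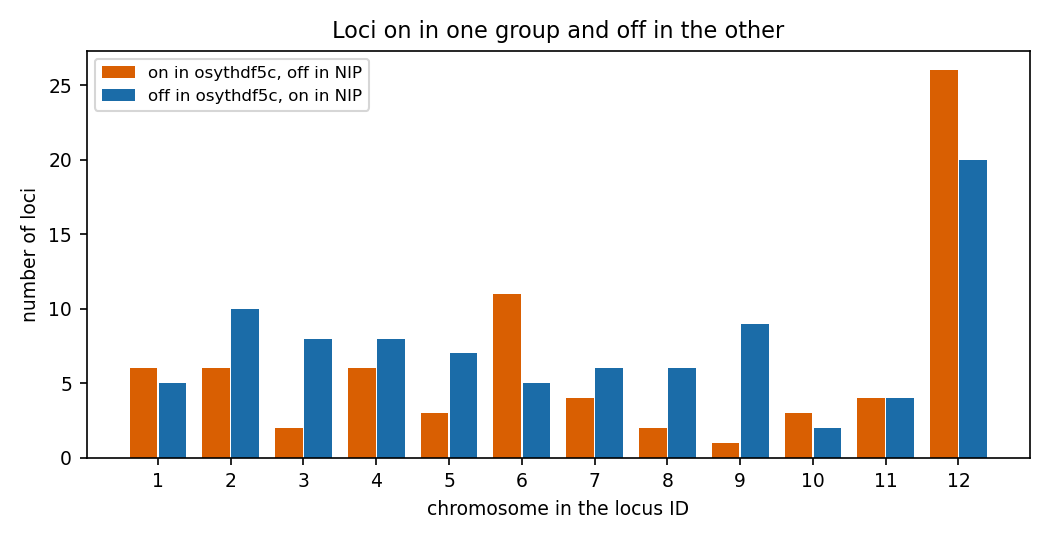
Number of loci (y axis) on in osythdf5c and off in NIP (orange) and off in osythdf5c and on in NIP (blue), by the chromosome in the locus ID (x axis). Chromosome 12 has 26 and 20 loci, and every other chromosome at most 11.

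Along the chromosomes, 514 windows of 50 consecutive tested loci were compared. The number of loci at least 2-fold different from NIP had a median of 10 per window and quartiles of 8 and 12. Only 3 windows held 30 or more, and in all 3 most of these loci were higher in osythdf5c. The remaining 511 windows held at most 23. By limma on log2(FPKM + 1) the windows on chromosomes 4 and 12 held 23 and 19 such loci. The windows were picked after their values were seen and have no test.

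The first of these windows lies on chromosome 12, between LOC_Os12g10784 and LOC_Os12g12560. Of its 50 loci, 30 were at least 2-fold higher and 4 at least 2-fold lower in osythdf5c, with a median log2 fold change of 2.32. It held 13 of the loci on in osythdf5c and off in NIP. At 25 loci NIP lay below the libraries of all 10 lines, and at 6 above them. Against the mean of the 9 lines only 6 of the 50 differed at least 2-fold, with a median log2 fold change of 0.21. Counted by locus, it was NIP that stood apart from the lines in this stretch, osythdf5c among them. The summed level of its loci was nonetheless lower in osythdf5c, at 842 ± 16 CPM against 977 ± 12 CPM in NIP (SD, n = 3 each). By this sum NIP lay inside the range of the 9 lines, from 728 CPM in OE-OsYTHDF1A to 994 CPM in osythdf3b.

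The other windows behaved differently when set against the 9 lines. On chromosome 10, between LOC_Os10g20890 and LOC_Os10g21800, 30 loci were at least 2-fold higher and 3 lower than in NIP (median log2 fold change 1.39), and in a separate count 34 of the 50 loci differed at least 2-fold from the mean of the 9 lines (median log2 fold change 1.16). The summed level of its loci was 1023, 1107 and 999 CPM in osythdf5c replicates 1, 2 and 3, against 424, 416 and 439.9 CPM in NIP. The osythdf5c libraries were all above those of NIP. Among the lines, osythdf2b was at 1055.5 ± 67 CPM, which overlaps with osythdf5c at 1043 ± 57 CPM, followed by osythdf1b at 807 ± 15 CPM and osythdf1c at 803 ± 76 CPM. RNAi-OsYTHDC1A was lowest, at 345 ± 42 CPM (SD, n = 3 each).

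On chromosome 4, between LOC_Os04g15670 and LOC_Os04g16846, 26 loci were at least 2-fold higher and 9 lower than in NIP (median log2 fold change 1.12), and in a separate count 25 of the 50 differed at least 2-fold from the 9 lines (median log2 fold change 0.92). As in the window on chromosome 12, the summed level went the other way, with 1549 ± 32 CPM in osythdf5c against 1855 ± 15 CPM in NIP (SD, n = 3 each). In the windows on chromosomes 4 and 10 no locus was on in 1 group and off in the other.

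**Figure D5:**
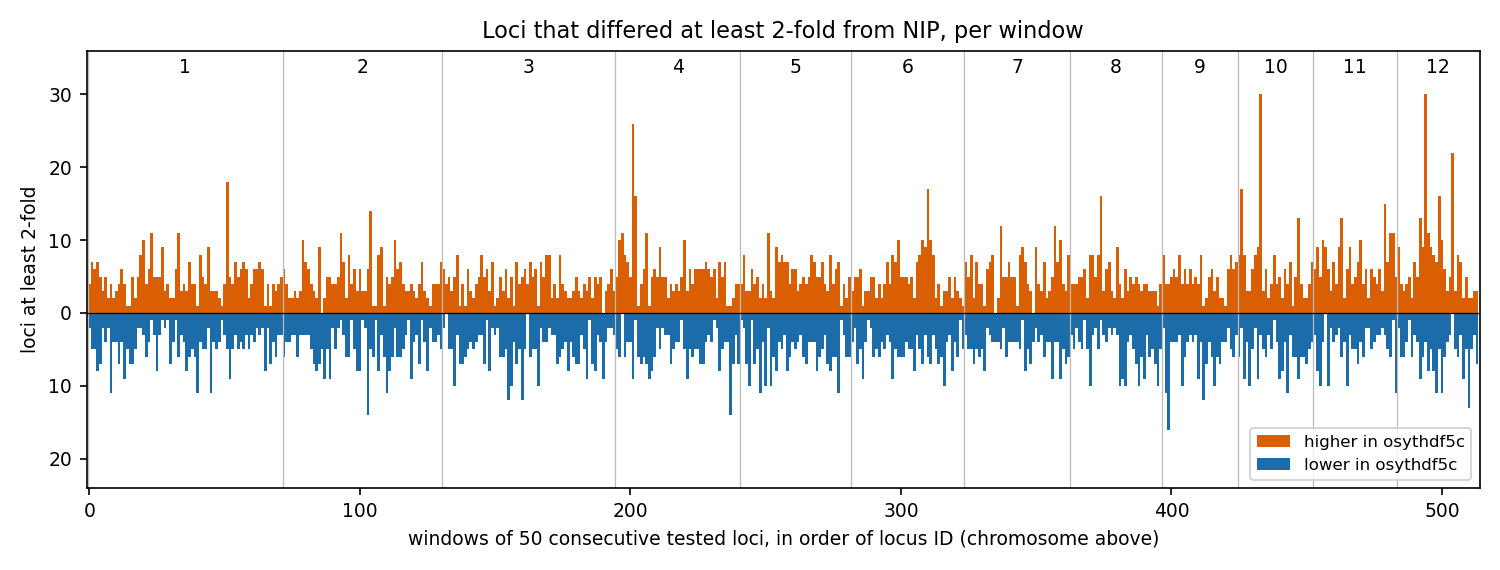
Number of loci at least 2-fold different from NIP in each of 514 windows of 50 consecutive tested loci, in the order of the locus IDs (x axis, chromosome above); orange bars upward count loci higher in osythdf5c and blue bars downward loci lower. The 3 tallest orange bars, on chromosomes 4, 10 and 12, stand for 26, 30 and 30 loci, and the median window held 10 loci in both directions together.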

How the data were processed

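Counts and FPKM came from the authors' deposited tables. The build IRGSP-1.0, the aligner HISAT2 and the counter featureCounts are named per the submitters' processing notes. With versions, settings and strand use not given in the sources used here, reads of overlapping, antisense or near-identical genes cannot be told apart. The deposited counts are whole numbers per feature without normalization (58089 features), and the deposited FPKM equal counts per column total and a fixed gene length. A total of 40 columns with no sample here were not used.

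The 33 NIP-background libraries were fitted together in edgeR 4.0.16 (R 4.3.3; TMM, filterByExpr, robust quasi-likelihood F test, 1 mean per group), and p-values were adjusted over 27584 features. The standard error is the log2 fold change divided by the square root of F. Positions outside other libraries use TMM-scaled CPM, and distances use log2(CPM + 0.5) for features over 5 CPM in every NIP-background group. The rule for named loci took the 2 largest fitted changes each way with an adjusted p under 0.05 and no overlap between libraries: against NIP at a mean of at least 100 CPM in the higher group, against the 9 lines at least 5 CPM and outside all other 30 libraries. The comparison, the lists and the rules were chosen with earlier results of these data known; the pairwise comparisons and windows were added after seeing the data. The neighbours and window bounds follow from the named loci and windows. Intervals and floors cover counting error only. Ratios between osythdf5c and the 9 lines pool the counts of their libraries, whereas the fit averages the 9 lines on the log2 scale, so both need not match. All 6 pairs of replicates differed by more than counting noise (chi-square per degree of freedom 2.06 to 18.3). Alternatives used DESeq2 1.42.0, limma 3.58.1 (log2 of FPKM with 1 or 0.1 added), other scalings and filters, the replicate block and each osythdf5c or NIP library left out in turn.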

Additional observations from a re-analysis of the deposited data

Results flagged for a closer look

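The 4 loci named for their difference from the other 9 lines are given here with that difference, osythdf5c minus the 9 lines on the log2 scale (edgeR, 3 libraries per group). It was 10.47 for LOC_Os05g25570 and 9.55 for LOC_Os12g13450, and -5.78 for LOC_Os02g32950 and -5.46 for LOC_Os01g03360. They were chosen for the size of this difference and for lying outside the other 30 libraries, among 500 higher and 212 lower loci that met the rule, so the values are a description. With so few counts in the low group, these fitted values depend on the prior count. At LOC_Os02g32950 the separation of osythdf5c from osythdf3b also rests on a few counts.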

How the results depend on the processing

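The number of features called against NIP stayed within 1.5 times of 17275 under every other scaling, filter, tool, block or left-out library run, but not with a 2-fold minimum. It was 14919 with only osythdf5c and NIP in the fit, 16719 by DESeq2, and 16313 to 16735 with 1 library of either group left out. Adding a 2-fold minimum gave 5826 against NIP, 3461 against the 9 lines and 3261 against osythdf2b. By limma on log2(FPKM + 1), which shrinks changes of low features, 2733 were at least 2-fold against NIP, 1322 against the 9 lines and 1350 against osythdf2b; the windows on chromosomes 4 and 12 held 23 and 19 such loci; the share was 13.02% on chromosome 12, 6.45% in the lowest class of level, 15.1% in the shortest and 4.90% in the longest genes; 12405 were lower against the 9 lines, and 3947 higher and 9469 lower against osythdf2b. With log2(FPKM + 0.1) these last counts were 11789, 3877 and 9547. Without a filter on low counts the share on chromosome 12 was 14.8%. Shares of the other chromosomes are not given without the filter or by limma, so the rank of chromosome 12 there is not known. Of features on in osythdf5c and off in NIP, and the reverse, there were 144 and 222 with on set at 0.5 CPM, 47 and 64 at 2 CPM, and 27 and 32 with off set at 0 counts. The cause of these moves was otherwise not tested. No named locus changed sign. The split against the 9 lines turned to 6622 higher and 10065 lower with library totals, and that against osythdf2b to 3855 and 9083. The order of the lowest and highest class of level turned round by limma on log2(FPKM + 1), with 11.3% in the highest. By limma on log2(FPKM + 1) the 8 other named loci kept their direction and call at smaller sizes: 7.06 for LOC_Os07g06834, 6.30 for LOC_Os03g02470, -7.10 for LOC_Os02g47390 and -5.74 for LOC_Os12g36430 against NIP, and 2.65 for LOC_Os05g25570, 2.79 for LOC_Os12g13450, -2.62 for LOC_Os02g32950 and -2.75 for LOC_Os01g03360 against the 9 lines. The rise of LOC_Os01g19850 lost its call without osythdf5c replicate 2 or NIP replicate 1, and its difference from the 9 lines was called by limma on log2(FPKM + 1) (-0.18, adjusted p = 0.014).

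Replicates with the same number did not vary together between osythdf5c and NIP (correlations -0.17, -0.018 and -0.035 over 16304 features). With 3 libraries per group this cannot decide whether the numbers pair the samples, and the main fit did not use them. With the replicate block 17188 features were called against NIP, 15713 against the 9 lines and 12088 against osythdf2b. The lower depth of osythdf5c limits what can be said of features near 1 CPM.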
